A study of Mus musculus with 36 samples.

Results

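Microglia treated with TNF, a Smac mimetic, zVAD and Nec-1s (T/S/Z/N) were compared directly with microglia treated with TNF, 5z-7 and Nec-1s (T/5z/N). The comparison used the 8 libraries whose labels give these treatments, 4 per group and paired by replicate number, out of 36 libraries in the series (24 of microglia and 12 of astrocytes). Both groups therefore carried TNF and the RIPK1 kinase inhibitor Nec-1s, for 4 h per the labels. The labels do not say whether inhibitors were added before TNF, and the study's methods give this order as typical for its primary cells. The groups differed in the agent that sensitizes cells to TNF: 5z-7 in one, the Smac mimetic together with zVAD in the other. The cells were primary microglia of C57BL/6 mice aged 2 to 4 days, whose brains were pooled, grown as mixed glia for 12 days and then enriched by positive selection for CD11b. The series calls the 4 libraries of a treatment biological replicates. Brains were pooled, and the test blocked on replicate number. The p-values therefore measure the spread, between these cultures, of the difference between treatments, with shifts common to a replicate removed. No library with TNF alone, or with TNF and only the Smac mimetic or zVAD, was analysed here, so contributions of 5z-7, the Smac mimetic and zVAD cannot be told apart.

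TNF binds TNFR1 and assembles a complex around RIPK1 in which cIAP ubiquitin ligases and the kinase TAK1 pass the signal to NF-κB and to the MAP kinases ERK, JNK and p38. 5z-7 blocks TAK1, Smac mimetics cause loss of the cIAPs, and zVAD blocks caspases. Either treatment releases RIPK1 from its checkpoints, so that its kinase can start apoptosis or, with caspases blocked, necroptosis through RIPK3 and MLKL, and Nec-1s blocks that kinase. Microglia answer TNF with chemokines, interleukin-1 and interferon-response genes, and with phosphatases that limit MAP kinase signaling.

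Values are log2(FPKM + 1), where FPKM is a gene's fragment count per length and depth. Each gene's mean over the microglial treatments was equal in all replicates, by an adjustment that is not described. SDs and statements that groups did not overlap therefore refer to adjusted values. In these 8 libraries the 75th percentile lay between 4.14 and 4.15 and the 10 most abundant genes took 18.5% to 19.6% of summed FPKM. Of the microglial markers, 11 of 12 passed the filter on low values, and their summed FPKM was 6390 to 7000 in T/5z/N and 6000 to 7360 in T/S/Z/N. No lymphocyte marker was listed, and neuronal markers summed to under 2 FPKM in each of these libraries. Neutrophil markers varied widely within both groups (0.0143 to 5.69 FPKM in T/5z/N and 0 to 10.9 in T/S/Z/N), and border-associated macrophage markers overlapped (870 to 948 and 864 to 1120). Fibroblast markers were low but separated the groups, with summed FPKM of 7.46 to 9.65 in T/5z/N and 3.63 to 6.17 in T/S/Z/N. Of 4 tested, 1 (Col1a1) was called lower, beside 1.59% of all genes. Astrocyte markers summed to 10.7 to 11.6 FPKM in T/5z/N and 6.28 to 8.11 in T/S/Z/N, with none of 7 called, beside 3.38% of all genes. Some members of both lists were lower in 4 of 4 pairs but under the fold change of 1.5 needed for a call. By limma these included Aqp4 (-0.55, adjusted p 0.00281), Gfap (-0.32, adjusted p 0.0134), Col1a2 (-0.56, adjusted p 0.00493) and Col3a1 (-0.50, adjusted p 0.0218). Values of the other members that were not called are not given here. Endothelial and pericyte markers also did not overlap, at 4.66 to 5.12 FPKM in T/5z/N and 3.52 to 4.43 in T/S/Z/N. None of 3 was called, beside 3.38% of all genes. Oligodendrocyte-lineage markers overlapped (47.3 to 51.2 and 49.6 to 50.7), and 1 of 4 tested, Cspg4, was called higher (0.75, SE 0.12), beside 1.8% of all genes. Acta2, a gene of contractile cells outside these lists that was chosen after its values were seen, was called lower (-0.86, SE 0.17). Fewer cells of a type and less RNA per cell cannot be told apart in such bulk samples, and the part of these cells in the results was not tested. The deposited annotation marks 7834 of 15385 genes as confounded, a term it does not define, and 43 of the 110 genes with values here carry the mark, among them Gpr84, Trem1, Slc16a6, Arrdc3, Atf3, Irf1, Slc2a1, Slc7a11 and Cx3cr1.

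Of 10524 genes tested, 356 (3.38%) passed limma's test at a Benjamini-Hochberg adjusted p under 0.05 with a fold change over 1.5, and are called here higher or lower in T/S/Z/N. The calls were 189 higher (1.8%) and 167 lower (1.59%). The median difference over all genes tested was -0.0095 on the log2 scale in values that the authors had scaled to a common 75th percentile. Differences were modest, with a median size of 0.75 log2 units among called genes, and 44 higher and 28 lower genes exceeded a fold of 2. Of the higher genes, 187 were higher in 4 of 4 pairs, and of the lower genes 163 were lower in 4 of 4 pairs. The share called was 3.19% in the genes with a mean log2 value under 2 and 3.1% in those of 6 or more.

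**Figure D1:**
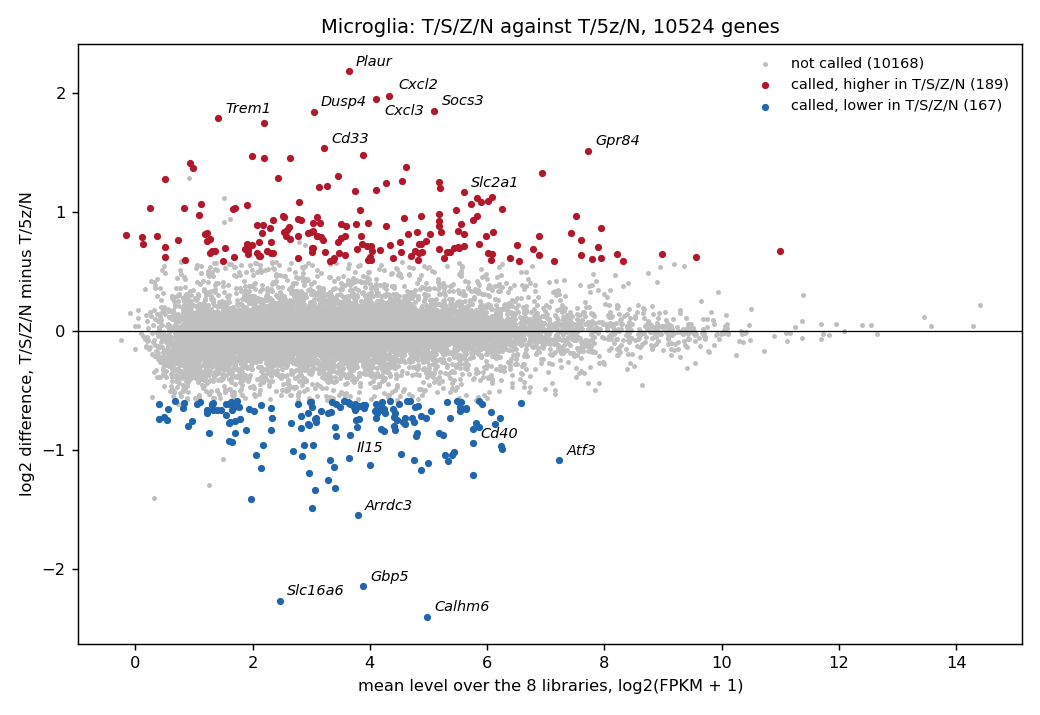
Log2 difference (T/S/Z/N minus T/5z/N, vertical axis) against the mean log2(FPKM + 1) over the 8 libraries (horizontal axis) for 10524 genes, with 189 genes called higher in red, 167 called lower in blue and the others in grey. Called genes lie at all levels, and Plaur (2.18) and Calhm6 (-2.40) mark the ends of the range of called genes.

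Of the genes that feed back on MAP kinase signaling, 8 of 16 tested were called higher in T/S/Z/N (beside 1.8% of all genes) and 0 lower, with a median difference of 0.59 against -0.0095 over all genes. Dusp4 (chromosome 8, 34807297 to 34819894), a nuclear phosphatase of ERK, JNK and p38, stood at 3.68, 3.80, 4.15 and 4.24 in T/S/Z/N and at 2.18, 2.11, 2.05 and 2.15 in T/5z/N. Its T/5z/N libraries lay close to DMSO (mean 2.09 ± 0.066, SD, n = 4) and all T/S/Z/N libraries lay above both, with a T/S/Z/N minus T/5z/N difference of 1.84 (SE 0.10, limma adjusted p 1.03e-05). The nuclear ERK phosphatase Dusp5 (1.28, SE 0.070), the cytoplasmic ERK phosphatase Dusp6 (0.89, SE 0.12), Dusp1 (0.88, SE 0.040), the JNK and p38 phosphatase Dusp16 (0.79, SE 0.063) and the RAF inhibitor Spred2 (0.83, SE 0.084) were also higher, each in 4 of 4 pairs. Against DMSO the patterns differed: Dusp6 had a mean of 3.88 in DMSO, 2.52 in T/S/Z/N and 1.64 in T/5z/N, while Dusp16 had 2.13 in DMSO, 3.18 and 2.38. Dusp2, a phosphatase of the same family, did not differ by the test (-0.11, SE 0.074, adjusted p 0.30). With 5 in place of 1 added before the log, 3 of these named genes kept their call (Dusp4, Dusp5 and Dusp1).

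Transcription factors of the immediate early response moved in both directions. Of 24 tested EGR and AP-1 genes, 4 were called higher (beside 1.8% of all genes) and 1 lower (beside 1.59%), with a median of 0.12. Jun, a core AP-1 subunit, measured 5.07, 5.05, 5.19 and 5.38 in T/S/Z/N and 4.03, 4.06, 4.05 and 3.51 in T/5z/N. The groups did not overlap (difference 1.26, SE 0.13, limma adjusted p 0.000212). The AP-1 subunits Fosl2 (0.94, SE 0.091) and Fos (0.60, SE 0.057) and the growth regulator Myc (0.67, SE 0.19) were higher as well. Fos lost its call without replicate 2 (0.53) or replicate 4 (0.58), and Myc without replicate 3 (0.53) or replicate 4 (0.49). The stress-response factor Atf3 was the lower one, at 6.47, 6.56, 6.67 and 7.06 in T/S/Z/N against 7.70, 7.91, 7.88 and 7.62 in T/5z/N. All its T/S/Z/N libraries were below the T/5z/N libraries, and the difference was -1.09 (SE 0.11, limma adjusted p 0.000227). Junb, the AP-1 subunit with the highest level of those not called, differed by 0.06 (SE 0.041, adjusted p 0.32). With ordinary per-gene variance, Jun, Fosl2, Myc and Atf3 did not pass (adjusted p 0.0662, 0.051, 0.244 and 0.0677).

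The chemokine genes split, and the split ran through a cluster of neighbouring genes on chromosome 5. Of 20 tested chemokines, 2 were called higher and 2 lower, beside 1.8% and 1.59% of all genes. Cxcl2 and Cxcl3, ligands of the neutrophil receptor CXCR2, were the 2 higher ones, and their neighbour Cxcl1, a ligand of the same receptor, was lower. The promoters of these genes are shown because all hold the same run of letters that matches the κB consensus, the binding sequence of NF-κB, ending 63 bases before the start in Cxcl3, 87 in Cxcl2 and 61 in Cxcl1. Sequences are the 250 bases before the start from RefSeq on GRCm38.p6, written 5′ to 3′ on the plus strand in which the genes are read. Capitals mark the bases that match the consensus, which was searched on both strands, and the run holds overlapping matches on both strands.
Cxcl3 (chr5:90785851-90786100): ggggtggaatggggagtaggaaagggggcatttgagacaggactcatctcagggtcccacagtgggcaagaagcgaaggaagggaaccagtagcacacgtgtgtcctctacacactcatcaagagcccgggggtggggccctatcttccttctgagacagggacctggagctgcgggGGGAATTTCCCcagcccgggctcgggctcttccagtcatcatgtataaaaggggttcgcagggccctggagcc
Cxcl2 (chr5:90903649-90903898): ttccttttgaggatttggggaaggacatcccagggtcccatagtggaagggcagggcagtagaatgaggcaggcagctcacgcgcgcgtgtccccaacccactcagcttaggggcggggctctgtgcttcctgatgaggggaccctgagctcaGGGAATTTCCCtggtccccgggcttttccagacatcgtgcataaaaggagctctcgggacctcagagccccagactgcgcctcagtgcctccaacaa
Cxcl1 (chr5:90890995-90891244): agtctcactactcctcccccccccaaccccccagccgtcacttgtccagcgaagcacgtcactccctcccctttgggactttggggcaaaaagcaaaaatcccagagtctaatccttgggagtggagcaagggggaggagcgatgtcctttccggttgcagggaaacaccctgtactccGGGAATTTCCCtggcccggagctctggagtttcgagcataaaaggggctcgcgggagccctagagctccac
The consensus stood in this window for 8.23% of all 27025 genes of the promoter table, for 10.8% of the 8183 tested genes that matched it, for 15.9% of the 145 matched higher genes and for 18.3% of the 126 matched lower genes. A match is a description of the letters and not of binding.

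Cxcl2 (90903871 to 90905938) measured 5.39, 5.27, 5.32 and 5.30 in T/S/Z/N and 3.77, 3.52, 2.99 and 3.12 in T/5z/N. Cxcl3 (90786103 to 90788093) measured 5.22, 5.13, 4.89 and 5.05 in T/S/Z/N and 3.28, 2.92, 3.05 and 3.25 in T/5z/N. In both genes every T/S/Z/N library lay above every T/5z/N library, with differences of 1.97 for Cxcl2 (SE 0.11, limma adjusted p 1.06e-05) and 1.95 for Cxcl3 (SE 0.068, limma adjusted p 2.16e-06), 3.92-fold and 3.85-fold. Cxcl1 (90891241 to 90893115) ran the other way, at 1.22, 1.32, 0.90 and 1.14 in T/S/Z/N against 2.70, 2.17, 1.87 and 1.53 in T/5z/N. It was lower in 4 of 4 pairs (log2 difference -0.92, SE 0.15, limma adjusted p 0.00279), with levels that spread widely within T/5z/N. It was -0.41 with 5 added before the log, and did not pass when all 24 libraries shared 1 estimate of the spread (adjusted p 0.0671) or with ordinary per-gene variance (0.11). The other lower chemokine was Cx3cl1, the ligand of the microglial receptor CX3CR1 (-0.88, SE 0.053, lower in 4 of 4 pairs). The CC chemokines with the highest levels did not differ by the test: Ccl3 by -0.08 (95% interval -0.40 to 0.24) and Ccl4 by -0.07 (-0.33 to 0.19). Ccl2 (-0.58, SE 0.10, adjusted p 0.00375) and Ccl22 (-0.50, SE 0.068, adjusted p 0.00108) were under the fold-change minimum, and Ccl2 passed it without replicate 3 (-0.72).

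**Figure D2:**
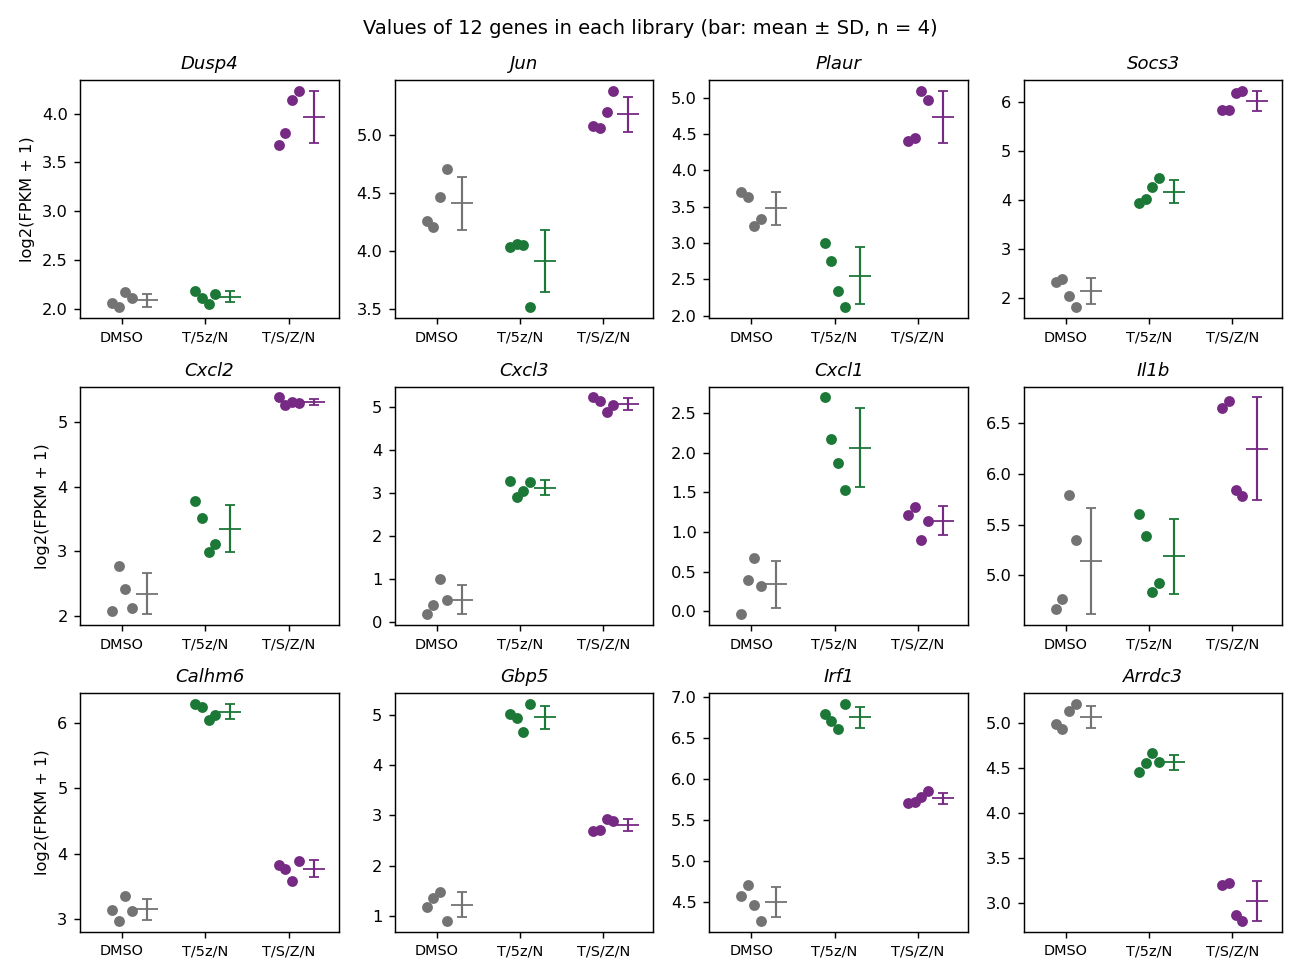
Values of 12 genes, log2(FPKM + 1) on the vertical axis, in 4 libraries each of DMSO, T/5z/N and, to the right, T/S/Z/N, with a point per library and the mean ± SD (n = 4) beside them. T/S/Z/N lies above T/5z/N without overlap for Dusp4, Jun, Plaur, Socs3, Cxcl2, Cxcl3 and Il1b, and below it for Cxcl1, Calhm6, Gbp5, Irf1 and Arrdc3.

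Most cytokine and growth factor genes that were called were higher in T/S/Z/N. Of 25 tested members of that list, 11 were higher (44.0%, beside 1.8% of all genes) and 2 lower (8.0%, beside 1.59%), with a median of 0.52. Tnfsf9, the ligand of the costimulatory receptor 4-1BB, had the largest difference in the list (1.46, SE 0.12, limma adjusted p 5.88e-05), followed by Inhba, a subunit of activin (1.41, SE 0.16), and the growth factor subunit Pdgfb (1.12, SE 0.059). Inhba was listed near 0 in T/5z/N, at -0.17, -0.04, 0.52 and 0.58, so its size is uncertain, and with 5 added before the log it was 0.44. Vegfa, an endothelial growth factor, was higher by 0.77 (SE 0.10) but lay below its DMSO mean of 2.83 in both groups, and its difference was 0.29 with 5 added before the log. The lower ones were Il15, a growth factor of lymphocytes (-1.07, SE 0.052), and Csf1, the ligand of the receptor on which microglia depend (-0.78, SE 0.058, and -0.47 with 5 added before the log). Tnf itself measured 4.15, 4.33, 4.81 and 4.61 in T/S/Z/N and 3.84, 3.96, 3.79 and 4.08 in T/5z/N, a difference of 0.56 (SE 0.10, adjusted p 0.00533) that was under the fold-change minimum and passed it without replicate 1 (0.64) or replicate 2 (0.62). Il6 was listed at 0.33 to 0.75 in T/S/Z/N and at -0.51 to 0.01 in T/5z/N. Since it was listed at or below about 0 in every T/5z/N library, no fold is given, and its call was lost without replicate 1 or replicate 2 (adjusted p 0.0567 and 0.0645).

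Il1a, Il1b and Il1rn were higher in T/S/Z/N. Of 15 tested members of the IL-1 and inflammasome list, 5 were called higher (beside 1.8% of all genes), 0 lower and 10 were not called, with a median of 0.15 and 5 differences below 0. Il1b, the secreted cytokine, measured 6.65, 6.72, 5.84 and 5.78 in T/S/Z/N and 5.60, 5.39, 4.83 and 4.92 in T/5z/N. Replicates 1 and 2 were above replicates 3 and 4 in both groups, and the paired difference was 1.06 (SE 0.068, limma adjusted p 1.97e-05), with groups that did not overlap. Il1a (1.04, SE 0.13) and the receptor antagonist Il1rn (0.95, SE 0.061) were higher too. Il1a was near 0 in T/5z/N (0.11 to 0.46), and its difference was 0.33 with 5 added before the log. Nlrp3, the sensor of the main inflammasome, measured 6.44 to 6.57 in T/S/Z/N and 5.42 to 5.82 in T/5z/N (0.83, SE 0.073), and Naip2, a receptor for bacterial proteins, 5.51 to 5.72 and 4.74 to 4.88 (0.83, SE 0.056). Il1a, Il1b and Naip2 are among the genes marked confounded.

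Plaur (chromosome 7, 24462484 to 24475967), the urokinase receptor, had the largest difference of any higher gene and measured 4.41, 4.45, 5.10 and 4.97 in T/S/Z/N and 3.00, 2.75, 2.34 and 2.11 in T/5z/N. The groups were 2.18 apart (SE 0.22, limma adjusted p 0.000228, 4.54-fold) and lay on either side of the DMSO mean of 3.48 ± 0.23, although with ordinary per-gene variance the difference did not pass (adjusted p 0.0699). Its promoter is shown because the AP-1 motif TGANTCA, in capitals, ends 63 bases before the start.
Plaur (chr7:24462233-24462482): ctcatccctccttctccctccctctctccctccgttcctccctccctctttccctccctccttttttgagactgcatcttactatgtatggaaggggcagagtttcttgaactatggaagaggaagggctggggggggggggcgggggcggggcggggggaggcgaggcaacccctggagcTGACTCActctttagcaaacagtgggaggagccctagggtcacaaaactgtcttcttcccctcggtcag
TGANTCA, which reads the same on both strands, stood before the start of 15.2% of the matched higher genes, 6.35% of the lower genes, 5.24% of the tested genes and 7.82% of all genes of the table.

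Socs3, the inhibitor of cytokine receptor signaling through STAT3, measured 5.85, 5.84, 6.19 and 6.22 in T/S/Z/N and 3.95, 4.03, 4.28 and 4.45 in T/5z/N, a difference of 1.85 (SE 0.040, limma adjusted p 1.36e-07). Both groups lay above DMSO (2.15 ± 0.27). Gpr84, a receptor for medium-chain fatty acids and the most abundant of the 15 highest differences, measured 8.59, 8.43, 8.34 and 8.56 in T/S/Z/N and 7.05, 6.97, 6.72 and 7.14 in T/5z/N (1.51, SE 0.043). Trem1, an amplifier of myeloid activation, was 2.16 to 2.48 in T/S/Z/N and 0.28 to 0.84 in T/5z/N, and the scavenger receptor Olr1 was 2.85 to 3.27 and 1.13 to 1.41. Cd33, an inhibitory sialic acid receptor, was 3.89 to 4.09 against 2.36 to 2.53 (1.53, SE 0.056). For Trem1 (0.54) and Cd33 (2.52) the DMSO mean lay within the range of the T/5z/N libraries, and every T/S/Z/N library stood above every DMSO library. Further genes among the 15 highest were Pmepa1, an inhibitor of TGF-β signaling (1.48, SE 0.080), the potassium channel Kcna3 (1.45, SE 0.090) with the neighbouring transcript AI504432 (1.47, SE 0.10), and the oxysterol synthase Ch25h (1.38, SE 0.21). Kcna3 and AI504432 lie on the same strand of chromosome 3 (107036169 to 107038070 and 107039504 to 107054347) and both are marked confounded, so their values may share reads.

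Among 27 G-protein coupled receptors and regulators of chemotaxis, 10 were called higher and 2 lower (beside 1.8% and 1.59% of all genes), with a median of 0.12. After Gpr84 came the chemokine receptor Ccr1 (1.37, SE 0.19), the adenosine receptor Adora2b (1.21, SE 0.063), the prostaglandin E2 receptor Ptger2 (1.05, SE 0.062, and 0.51 with 5 added before the log) and the UDP receptor P2ry6 (0.97, SE 0.043). Ccr1 was near 0 in T/5z/N (0.12 to 0.62), and its difference was 0.47 with 5 added before the log. The lower members were Ptger4, the other prostaglandin E2 receptor called (-0.69, SE 0.054), and Ccrl2, a receptor that presents chemerin (-0.67, SE 0.052). Of 15 tested prostaglandin and leukotriene genes, 2 were higher (13.3%, beside 1.8% of all genes) and 1 was lower (Ptger4, 6.67%, beside 1.59%). The other 12 were not called, and the median was 0.0069. Ptger2 was not a member of that list and is counted among the receptors. The 2 higher ones encode enzymes of prostaglandin E2 synthesis, the inducible cyclooxygenase Ptgs2 (0.93, SE 0.14) and the terminal synthase Ptges (0.71, SE 0.059). Ptges was at 8.11 to 8.44 in T/S/Z/N and 7.37 to 7.80 in T/5z/N, both far above DMSO (2.88). Ptgs2 did not pass when all 24 libraries shared 1 estimate of the spread (adjusted p 0.0752) or with ordinary per-gene variance (0.101). The innate co-receptor Cd14 (0.67, SE 0.067) was the one member called of 28 innate sensors and lectins (3.57% higher, beside 1.8% of all genes). It was under the fold-change minimum after quantile normalization (0.55).

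Several genes of the glycolysis and oxidative stress lists were higher in T/S/Z/N. In the glycolysis and HIF-1 list 6 of 28 tested were higher and 0 lower (median 0.16), and in the NRF2 list 4 of 25 were higher and 0 lower (median 0.22), beside 1.8% higher and 1.59% lower over all genes. Slc2a1, the glucose transporter GLUT1, measured 6.20, 6.17, 6.16 and 6.20 in T/S/Z/N and 5.09, 5.03, 4.87 and 5.08 in T/5z/N, with little spread and no overlap (1.16, SE 0.042, limma adjusted p 2.16e-06). Pfkfb3, which makes the activator of phosphofructokinase (0.81, SE 0.059), hexokinase 2 (Hk2, 0.76, SE 0.052) and the lactate exporter Slc16a3 (0.70, SE 0.044) were higher in 4 of 4 pairs. Slc7a11, the cystine importer that feeds glutathione synthesis, measured 5.69, 5.69, 5.79 and 6.07 in T/S/Z/N and 4.68, 4.48, 4.34 and 4.76 in T/5z/N (1.25, SE 0.065), both above DMSO (2.52 ± 0.27). The peroxiredoxin repair enzyme Srxn1 (0.87, SE 0.062) and heme oxygenase Hmox1 (0.62, SE 0.058) were also higher, the latter under the fold-change minimum without replicate 2 (0.56).

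The largest lower difference was that of Calhm6, and several interferon-stimulated genes were lower. Of 36 tested type I interferon-stimulated genes, 8 (22.2%, beside 1.59% of all genes) were called lower and 1 higher (2.78%, beside 1.8%). The median was -0.19, and 29 of 36 differences were below 0. Calhm6 (chromosome 10, 34126067 to 34127984), a channel of activated macrophages, had the largest difference of any lower gene, at 3.83, 3.77, 3.59 and 3.90 in T/S/Z/N and 6.29, 6.24, 6.05 and 6.11 in T/5z/N. The guanylate-binding protein gene Gbp5 (chromosome 3, 142496900 to 142522344), whose product acts against intracellular microbes, measured 2.70, 2.70, 2.94 and 2.89 in T/S/Z/N and 5.01, 4.94, 4.66 and 5.21 in T/5z/N. Neither gene overlapped between groups, and the differences were -2.40 for Calhm6 (SE 0.051, limma adjusted p 1.36e-07) and -2.14 for Gbp5 (SE 0.095, limma adjusted p 4.74e-06). Both promoters are shown because they hold, in capitals, the core of the interferon-stimulated response element (GAAA, any pair of bases, GAAA), read on the gene's strand in Calhm6 and on the other strand in Gbp5. Calhm6 lies on the minus strand of the genome, and its sequence is written in the direction of the gene.
Calhm6 (chr10:34127973-34128222): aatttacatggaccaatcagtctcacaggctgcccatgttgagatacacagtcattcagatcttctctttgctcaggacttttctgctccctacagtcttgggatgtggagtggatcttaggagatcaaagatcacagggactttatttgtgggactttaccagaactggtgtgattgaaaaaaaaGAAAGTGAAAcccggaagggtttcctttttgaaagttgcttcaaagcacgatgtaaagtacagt
Gbp5 (chr3:142496684-142496933): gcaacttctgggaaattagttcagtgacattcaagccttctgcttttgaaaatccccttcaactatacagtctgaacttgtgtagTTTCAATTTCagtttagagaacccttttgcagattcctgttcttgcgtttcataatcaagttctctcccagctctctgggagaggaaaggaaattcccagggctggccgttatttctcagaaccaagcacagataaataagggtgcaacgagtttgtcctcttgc
This core stood in the window, on either strand, for 11.9% of the matched lower genes, 2.76% of the higher genes, 3.46% of the tested genes and 3.46% of all genes of the table. The Gbp5 window also holds 1 match to the κB consensus, which is not in capitals.

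Ifit2, an RNA-binding antiviral protein (-0.87, SE 0.060), the mitochondrial nucleotide kinase Cmpk2 (-0.83, SE 0.095), Gbp2 (-0.78, SE 0.067) and Rsad2, the antiviral enzyme viperin (-0.74, SE 0.071), were lower in 4 of 4 pairs. The one higher member was Ifi205 (0.59, SE 0.055), a gene of a family of near-identical copies whose value is therefore uncertain, and it was under the fold-change minimum without replicate 3 (0.54), without replicate 4 (0.57) and after quantile normalization (0.55). With ordinary per-gene variance, 3 of the 8 lower members of the list passed. The long noncoding transcript AW112010, which is induced in activated macrophages, was lower (-1.21, SE 0.070).

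Irf1, a transcription factor of interferon and TNF responses, measured 5.70, 5.72, 5.78 and 5.86 in T/S/Z/N and 6.80, 6.70, 6.61 and 6.92 in T/5z/N. Cd40, the receptor through which T cells activate myeloid cells, measured 5.40, 5.08, 5.20 and 5.46 in T/S/Z/N and 6.40, 6.07, 6.08 and 6.35 in T/5z/N. Neither overlapped, with differences of -0.99 for Irf1 (SE 0.047, limma adjusted p 6.15e-06) and -0.94 for Cd40 (SE 0.038, limma adjusted p 3.49e-06), and in both groups both genes stood above DMSO (4.50 and 1.67). Together with the hexose transporter Slc2a6 (-0.78, SE 0.039) and Ccrl2 they were the 4 lower members of 28 tested NF-κB target effectors (14.3%, against 1.59% of all genes), where 4 others were higher (14.3%, against 1.8%): Plaur, Ptgs2, Ptges and Traf1, the last an adaptor of TNF receptors at 0.64 (SE 0.035). The list thus went both ways, with a median of -0.14. Among adhesion and costimulation genes, 2 of 19 were higher (Tnfsf9 and the hyaluronan receptor Cd44, 1.09, SE 0.090) and 3 lower, led by the integrin subunit Itga4 (-1.05, SE 0.060), beside 1.8% and 1.59% of all genes. Tnfrsf14, a receptor of the TNF family, was lower (log2 difference -1.26, SE 0.11).

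NF-κB subunits and their inhibitors differed by less than the fold-change minimum, but for 1 gene. Of 13 NF-κB subunits and non-canonical genes, 0 were called, beside 3.38% of all genes, although limma gave 8 an unadjusted p and 6 an adjusted p under 0.05, with differences from -0.22 to 0.31, among them Nfkb2 at 0.20 (SE 0.039, adjusted p 0.00733). Of 13 inhibitors and feedback genes 1 (7.69%, beside 1.8% of all genes) was higher (Tnip1, a partner of A20, 0.73, SE 0.053), with a median of 0.24 and 11 of 13 differences above 0. Nfkbia, which encodes IκBα, measured 8.60, 8.46, 8.45 and 8.53 in T/S/Z/N and 8.20, 8.12, 8.06 and 8.15 in T/5z/N, and Tnfaip3, which encodes A20, differed by 0.37 (SE 0.048). For Nfkbia the groups did not overlap and both were far above DMSO (5.45), yet the difference of 0.38 (SE 0.036, limma adjusted p 0.000154) was under the fold-change minimum.

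**Figure D3:**
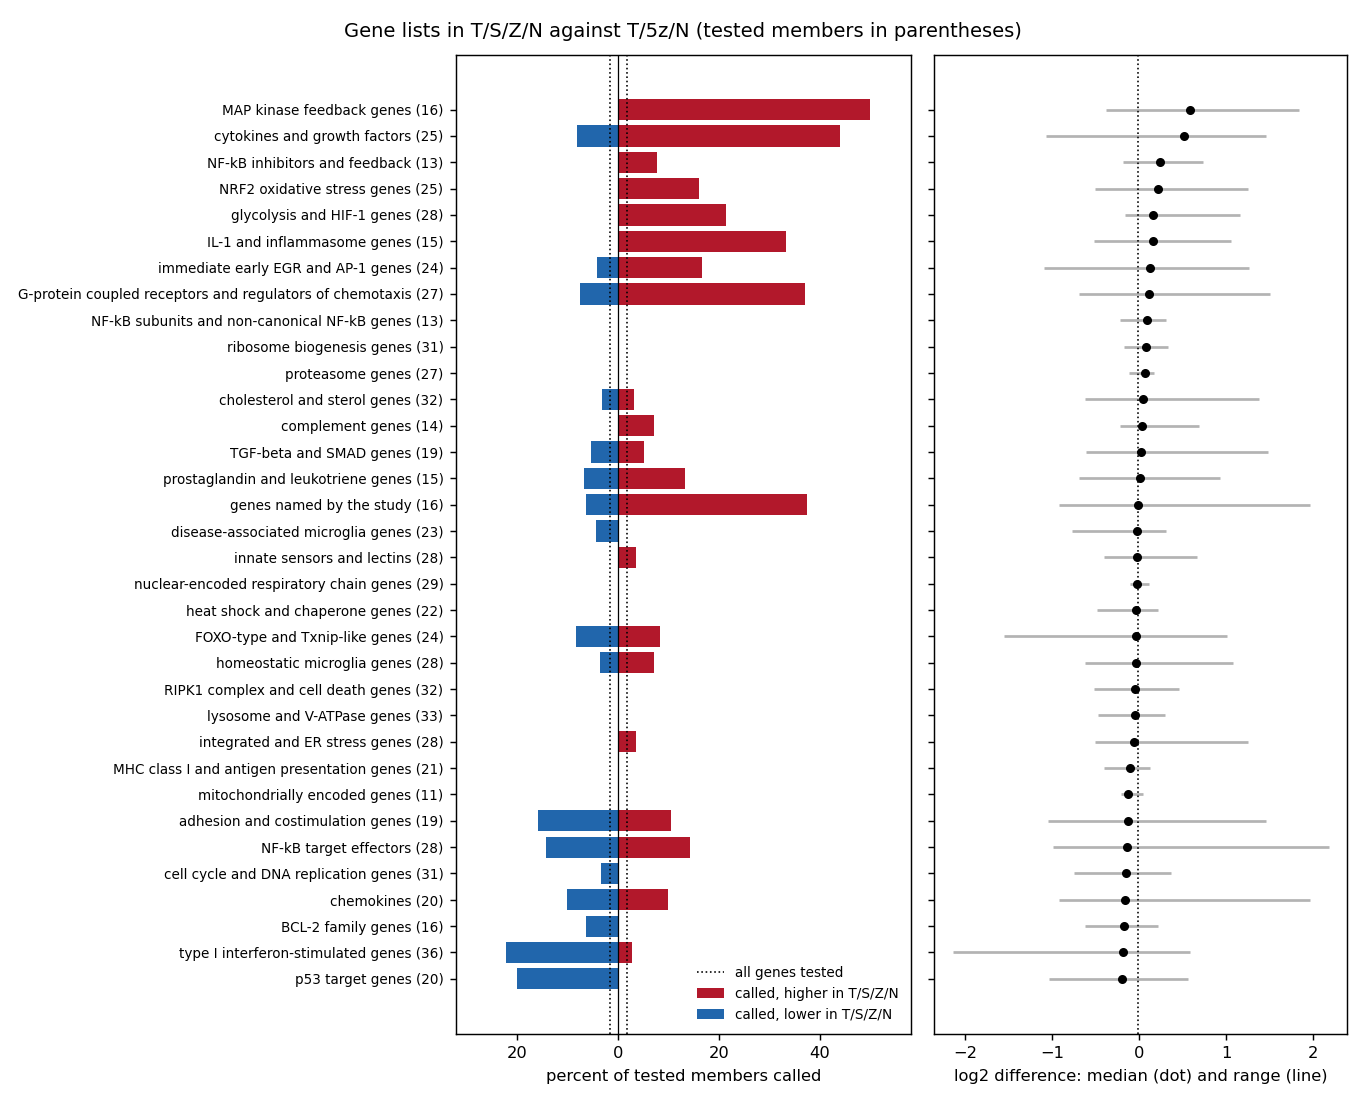
The left panel gives the percent of tested members of 34 gene lists called higher (red, to the right) or lower (blue, to the left) in T/S/Z/N, with dotted lines at the shares over all genes tested (1.8% and 1.59%), and the right panel gives each list's median log2 difference as a dot with its lowest and highest member as a line. The MAP kinase feedback list is at the top with 8 of 16 members higher and a median of 0.59, and the p53 and interferon lists are at the bottom with 4 of 20 and 8 of 36 members lower.

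The remaining lower genes were of several kinds. Slc16a6 (chromosome 11, 109450855 to 109473598), a monocarboxylate transporter, measured 1.29, 1.47, 1.29 and 1.26 in T/S/Z/N and 3.51, 3.84, 3.75 and 3.28 in T/5z/N, on either side of DMSO (2.66 ± 0.14), and differed by -2.27 (SE 0.079, limma adjusted p 2.16e-06). Arrdc3, an arrestin-like adaptor that responds to glucose and is a FOXO target, measured 3.19, 3.22, 2.86 and 2.79 in T/S/Z/N and 4.46, 4.56, 4.67 and 4.57 in T/5z/N (-1.55, SE 0.095). Its T/5z/N libraries lay between DMSO (5.07) and T/S/Z/N. Sesn1, a stress-response gene of both the p53 and the FOXO lists, was lower (log2 difference -1.04, SE 0.049), with T/5z/N (5.06) near DMSO (4.99). Of 20 p53 target genes 4 were lower and 0 higher (median -0.19, beside 1.59% lower and 1.8% higher over all genes), among them the pro-apoptotic Bbc3, which encodes PUMA (-0.62, SE 0.049) and fell under the fold-change minimum without replicate 3 (-0.58). Of 24 FOXO-type genes 2 were lower and 2 higher (8.33% each way, beside 1.59% and 1.8% of all genes). The lower were Arrdc3 and Sesn1, and the higher the pseudokinase Trib1 (1.01, SE 0.056) and the growth arrest gene Gadd45a (0.91, SE 0.11).

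Others among the 15 lowest were Snn (-1.49, SE 0.097), the ubiquitin ligase Rnf144b (-1.41, SE 0.069), the orphan receptor Gpr162 (-1.33, SE 0.049), the fatty acid binding protein Fabp4 (-1.32, SE 0.086), Arhgap19 (-1.19, SE 0.072), Msl3l2 (-1.15, SE 0.086), the nucleotidyltransferase Tent5c (-1.14, SE 0.083) and Tmem140 (-1.13, SE 0.048), each lower in 4 of 4 pairs. The small nuclear RNA 7SK (Rn7sk), which normally carries no poly(A) tail, was lower (log2 difference -1.17, SE 0.22) in these mRNA-enriched libraries, and not with ordinary per-gene variance (adjusted p 0.152). The proliferation marker Mki67 was the one call among 31 tested cell cycle genes (3.23% lower, beside 1.59% of all genes), at 0.34 to 0.93 in T/S/Z/N and 1.15 or more in T/5z/N, and its difference of -0.76 was -0.25 with 5 added before the log.

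Of 32 genes of the RIPK1 complex and cell death, 0 were called, beside 3.38% of all genes, although limma gave 20 an unadjusted p and 16 an adjusted p under 0.05, with differences between -0.52 and 0.46 that were all under the fold-change minimum. Outside that list, the pro-apoptotic Bbc3 was lower, and Gsdme, a pore-forming effector of cell death chosen after its values were seen, was higher (0.76, SE 0.080). Ripk1, the target of Nec-1s, measured 5.01, 5.02, 5.04 and 5.01 in T/S/Z/N and 4.94, 4.98, 5.01 and 4.92 in T/5z/N (0.06, 95% interval -0.02 to 0.15). Mlkl, the executor of necroptosis, differed by -0.06 (95% interval -0.20 to 0.07) and Ripk3, its kinase, by -0.20 (-0.35 to -0.05), with limma adjusted p of 0.458 for Mlkl and 0.0597 for Ripk3. No member was called in the MHC class I, lysosome, heat shock, ribosome biogenesis, proteasome, nuclear respiratory chain and mitochondrially encoded lists, beside 3.38% of all genes. In these lists limma gave an unadjusted p under 0.05 to 11 of 21, 12 of 33, 11 of 22, 13 of 31, 10 of 27, 4 of 29 and 0 of 11 genes. Over all genes tested, 4042 of 10524 had an unadjusted p under 0.05. In the proteasome list all 27 differences lay between -0.12 and 0.17, and in the nuclear respiratory chain list all 29 lay between -0.11 and 0.11. In the TGF-β (19 tested) and the cholesterol (32 tested) lists 1 gene was higher and 1 lower, in the BCL-2 family 1 of 16 was lower (Bbc3), and in the complement and the integrated stress lists 1 of 14 and 1 of 28 were higher, counts to be read against 1.8% higher and 1.59% lower over all genes.

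Of 28 tested homeostatic microglial genes 2 were higher (7.14%, beside 1.8% of all genes), 1 was lower (3.57%, beside 1.59%) and 25 were not called. Cx3cr1, the fractalkine receptor, measured 7.88, 7.82, 7.83 and 7.85 in T/S/Z/N and 6.93, 7.03, 7.07 and 7.07 in T/5z/N. The T/S/Z/N libraries were close to DMSO (7.98 ± 0.017) and the T/5z/N libraries were below it, 0.82 apart (SE 0.042, limma adjusted p 9.57e-06). Rhob, a small GTPase, was also lowest in T/5z/N, with means of 6.43 in T/S/Z/N, 5.35 in T/5z/N and 6.42 in DMSO (1.08, SE 0.043). Gpr34, a lysophosphatidylserine receptor, was lower (-0.62, SE 0.073), but under the fold-change minimum without replicate 3 (-0.55). Tmem119, a marker of resident microglia, differed by -0.03 (95% interval -0.22 to 0.17). Of 23 disease-associated genes 1 was lower (Csf1, 4.35%, beside 1.59% of all genes).

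The study names a set of genes, some from these cultures and others from microglia of diseased animals, so its list is not independent evidence. Of 16 of them tested, 6 were higher (Cxcl2, Ch25h, Il1b, Bhlhe40, Cx3cr1 and Il6) and 1 lower (Cxcl1), against 1.8% and 1.59% of all genes. Of these calls Il6 and Cxcl1 were lost when all 24 libraries shared 1 estimate of the spread (adjusted p 0.104 and 0.0671). Bhlhe40, a transcription factor of cytokine production, had means of 4.21 in T/S/Z/N and 3.31 in T/5z/N (0.90, SE 0.10), both above DMSO (2.41). Rgs1, a regulator of chemokine receptor signaling, did not differ by the test (-0.35, SE 0.15, adjusted p 0.12).

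The position of the vehicle-treated (DMSO) cells, which carried no Nec-1s, was then examined. Cells with Nec-1s alone are shown in the plot of 6 treatments and entered no comparison. Both groups differed widely from DMSO, with 1481 genes called in T/S/Z/N (14.1%) and 1352 in T/5z/N (12.8%). These comparisons share the DMSO libraries, so only the position of the DMSO mean is given for the called genes. Among the 189 genes higher in T/S/Z/N, the DMSO mean was below both groups for 74, between them for 65 and above both for 50. Among the 167 lower genes it was below both for 78, between them for 53 and above both for 36. Thus the higher genes included some raised more in T/S/Z/N, such as Socs3, Cxcl3 and Gpr84, and some that stood lower than DMSO in T/5z/N and less so in T/S/Z/N, such as Fosl2 (4.42 in DMSO, 3.24 and 2.30) and Dusp6.

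The same contrast of stimuli in other libraries, T/S/Z against T/5z with the RIPK1 kinase left free, asked which of these differences were present without Nec-1s. It called 1035 of 10524 genes (9.83%), 570 higher (5.42%) and 465 lower (4.42%), and shares no library with the comparison above. Of the 189 higher genes, 128 (67.7%) were also called higher in T/S/Z against T/5z, 0 were called lower and 61 were not called. Of the 167 lower genes, 104 (62.3%) were also called lower, 9 were called higher and 54 were not called. The 232 genes called the same way were 65.2% of the calls with Nec-1s and 22.4% of the calls without it. Across all 10524 genes, which are not independent, the log2 differences had a Pearson r of 0.53 and a Spearman rho of 0.45.

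**Figure D4:**
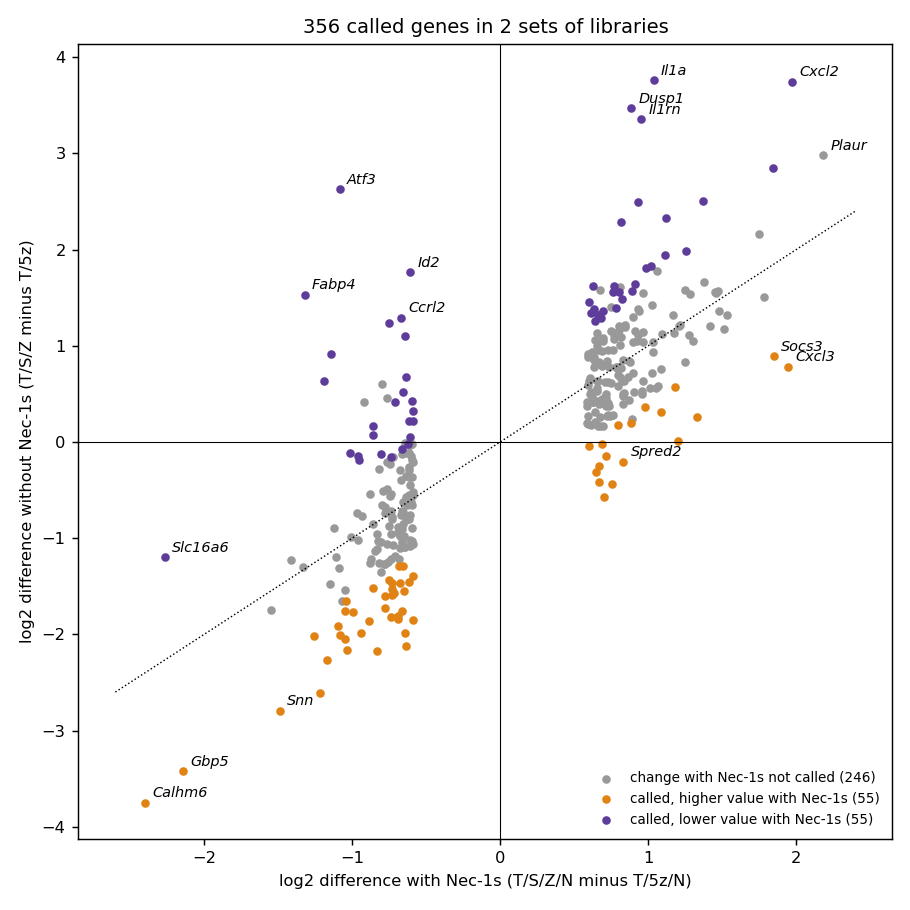
Log2 difference without Nec-1s (T/S/Z minus T/5z, vertical axis) against the difference with Nec-1s (T/S/Z/N minus T/5z/N, horizontal axis) for the 356 called genes, with orange and purple points for the 110 genes whose differences were called different by the interaction test and a dotted line where both are equal. Most points lie in the lower left and upper right, and Atf3, Fabp4, Id2 and Ccrl2 stand in the upper left.

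Whether the difference changed with Nec-1s was tested as an interaction over the 4 groups, which called 681 of 10524 genes (6.47%). It was called for 110 of the 356 genes (30.9%), a count that reuses the libraries that chose these genes. Calhm6 and Gbp5 were lower in both settings but by more without Nec-1s, by -3.75 (SE 0.046) and -3.42 (SE 0.060). In T/S/Z, Calhm6 (3.10 ± 0.028) stood at the level of DMSO (3.15 ± 0.16), while T/5z had 6.85 ± 0.050. Cxcl2 and Dusp1 were higher in both settings and by more without Nec-1s (3.75, SE 0.35, and 3.47, SE 0.17). Socs3 and Cxcl3 were higher in both and by less without Nec-1s (0.89, SE 0.065, and 0.78, SE 0.070). Cxcl2 and Cxcl3 both had lower means with Nec-1s under either stimulus, which was not tested (without it, Cxcl2 means of 9.90 in T/S/Z and 6.15 in T/5z, Cxcl3 means of 6.97 and 6.19), but their T/S/Z minus T/5z differences moved in opposite directions, with interactions of -1.78 (SE 0.42, limma adjusted p 0.00768) and 1.16 (SE 0.11, limma adjusted p 8.65e-06).

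The 9 genes called in opposite directions were all lower in T/S/Z/N and higher in T/S/Z. Fabp4 measured 2.63, 2.84, 2.71 and 2.81 in T/S/Z/N and 4.15, 4.27, 4.08 and 3.78 in T/5z/N, whereas T/S/Z had a mean of 5.12 and T/5z of 3.58. Atf3 had means of 10.04 in T/S/Z and 7.41 in T/5z, so that it was 2.63 higher (SE 0.14) without Nec-1s and lower with it (-1.09). Id2, an inhibitor of helix-loop-helix factors, was higher by 1.77 (SE 0.091) without Nec-1s and lower (log2 difference -0.61, SE 0.048) with it, the latter under the fold-change minimum without replicate 3 (-0.56). Tent5c, Ccrl2 and Arhgap19 had the same pattern, with differences without Nec-1s of 0.91, 1.29 and 0.63, the last lost without replicate 4 (0.50).

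**Figure D5:**
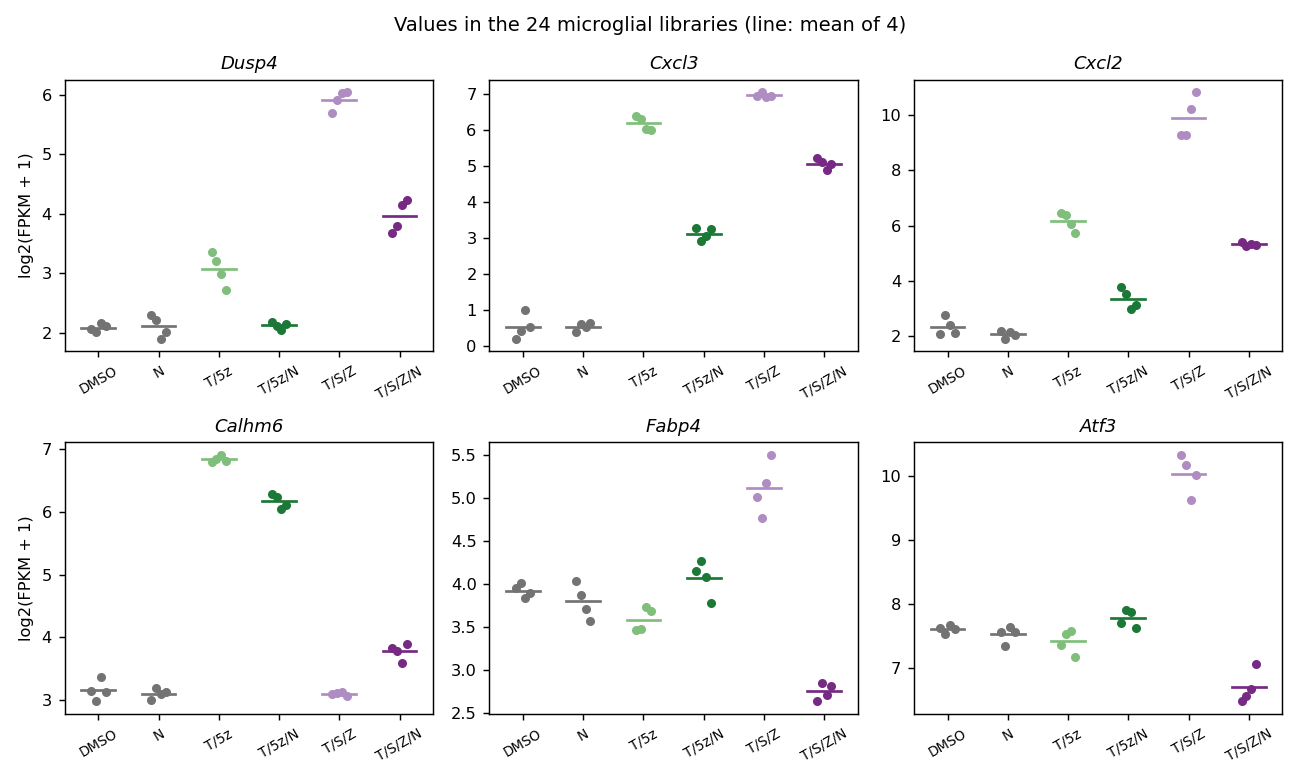
Values of 6 genes, log2(FPKM + 1) on the vertical axis, in the 24 microglial libraries by treatment, with a point per library and a line at the mean of 4. Calhm6 is high in T/5z and T/5z/N and near its DMSO level of 3.15 in T/S/Z, while Fabp4 and Atf3 are highest in T/S/Z (means of 5.12 and 10.04) and lowest in T/S/Z/N.

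Some genes were close to each other with Nec-1s and far apart without it. Rcan1, an inhibitor of calcineurin, was at 4.58 to 4.76 in T/S/Z/N and 4.70 to 4.99 in T/5z/N, both near DMSO (4.70), but its means were 9.68 in T/S/Z and 5.18 in T/5z. Osm, a cytokine of the IL-6 family, and Egr2 were 4.35 and 4.27 higher without Nec-1s and 0.29 (SE 0.077) and 0.36 (SE 0.24) with it. Their interactions of -4.67 for Rcan1, -4.06 for Osm and -3.91 for Egr2, beside -3.92 for Ccl4 and -3.71 for Atf3, were the 5 lowest of the called genes. The 5 highest interactions were those of the chemokine Ccl22 (1.71), the purinergic receptor P2ry13 (1.66), Dusp2 (1.64), Tmem119 (1.61) and the lymphoid and myeloid factor Ikzf1 (1.60), with T/S/Z minus T/5z differences from -2.21 to -1.63 and no call with Nec-1s.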

How the data were processed

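RNA of microglial cultures was sequenced after mRNA enrichment. Whether counting used strand is not given in the sources used here. For the microglia the authors deposited a table of log2 values, log2(FPKM + 1), scaled in OmicSoft Array Studio so that libraries share their 75th percentile. In it, averages per gene across the 6 treatments were equal in all 4 replicates (largest difference from replicate 4 6.67e-05), an adjustment that the sources used here do not describe. It left 0 to 1438 values below 0 in a library, and it may make replicates look more alike. This holds for the SDs, the statements that groups did not overlap and the plots of single libraries. Depth is unknown: 64.3% to 65.9% of low values in replicate 4 lay within 0.1 of a whole multiple, so read counts were not recovered. No table column was without a sample.

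Genes with a log2 value of at least 1 in at least 4 of 24 microglial libraries were tested, 10524 of 15385. T/S/Z/N was compared with T/5z/N in limma 3.58.1 (R 4.3.3) on the 8 libraries with the replicate number as a block, as in the study's paired test, and a variance trend. Two-sided p-values were adjusted over all genes tested (Benjamini-Hochberg), and a call needed an adjusted p under 0.05 and a fold change over 1.5. The added 1 makes fold changes of genes with low FPKM look smaller. T/S/Z against T/5z, each group against DMSO and the interaction were fitted alike. The script was tested on simulated data. Alternatives were the model, the value added before the log, filters, normalization and leaving out each replicate.

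Genes were named by rule: the 15 highest and 15 lowest differences that moved the same way in 4 of 4 pairs, up to 3 called members per list and direction with up to 2 members not called, the genes the study named, and the 5 largest interactions in each direction. Dusp1, Dusp16, Spred2, Fos, Gbp2, Rsad2, Nlrp3, Naip2, Hk2, Slc16a3, Ptger2, P2ry6, Traf1, Tnfaip3 and Tnf fall outside it and were chosen after their values were seen. The comparison and the lists were chosen with earlier results of these data known. Coordinates are those of the deposited annotation, and all 110 named genes were found in GENCODE M21, 95 with the same start.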

Additional observations from a re-analysis of the deposited data

Results flagged for a closer look

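Within the groups of 4, 6 of 220 groups examined held a library far from the other 3 by Dixon's criterion at the 95% level. A criterion at this level flags some of so many groups by chance. In T/5z/N these were low values of Jun (3.51), Junb (7.89) and Olr1 (1.13) and high values of Dusp2 (4.01) and Tnfsf9 (2.24), and in T/S/Z/N a high value of Egr2 (2.86).

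The T/S/Z minus T/5z stimulus difference differed with and without Nec-1s, by the interaction test, for 46 of the 110 named genes. Over all genes tested the share was 6.47%. Some genes were named for their interaction and others for differences in the same libraries, so the count is not a result about the named genes. Values are the log2 difference with Nec-1s minus that without it. Among genes of the MAP kinase and immediate early responses it was -1.01 for Dusp4, -2.58 for Dusp1, 1.04 for Spred2, 1.64 for Dusp2, -0.72 for Jun, 0.64 for Fos, -3.71 for Atf3 and -3.91 for Egr2. For chemokine genes it was -1.78 for Cxcl2, 1.16 for Cxcl3, 0.98 for Cx3cl1, -3.59 for Ccl3, -3.92 for Ccl4 and 1.71 for Ccl22. For cytokine genes it was -2.72 for Il1a, -2.41 for Il1rn, -2.94 for Tnf, -4.06 for Osm and -1.20 for Pdgfb. For genes of interferon, NF-κB and receptor signaling it was 1.28 for Gbp5, 0.77 for Irf1, 1.04 for Cd40, 0.96 for Socs3, -0.77 for Tnfaip3, 0.82 for Slc2a6, 0.76 for Tnfrsf14 and 1.40 for AW112010. For receptors, adhesion and lipid mediators it was -1.13 for Ccr1, -1.96 for Ccrl2, 1.66 for P2ry13, 0.71 for Itga4, -2.92 for Rgs1 and -1.56 for Ptgs2. For stress, transport and other genes it was 1.35 for Calhm6, -1.07 for Slc16a6, 1.12 for Sesn1, -0.73 for Gadd45a, 1.31 for Snn, -2.85 for Fabp4, -1.82 for Arhgap19, 1.09 for Rn7sk, -2.05 for Tent5c, -2.37 for Id2, -4.67 for Rcan1, 1.60 for Ikzf1 and 1.61 for Tmem119. The calls of Rn7sk, Jun, Ptgs2, Cx3cl1, Fos, Tnfrsf14 and Gadd45a were lost when 1 replicate was left out.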

How the results depend on the processing

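With no replicate block, 353 genes were called in place of 356, all of them among the 356, so the pairing moved the count little. Deviations of same-numbered libraries from their group means were not positively correlated (-0.184 to -0.0428), which the authors' adjustment of the replicate means constrains. The pairing was taken from the study's paired test. Leaving out 1 replicate gave 350 to 376 calls (182 to 210 higher, 149 to 178 lower). A fold-change minimum of 2 gave 72 (44 and 28) and no minimum 2759 (1316 and 1443). Adding 5 before the log gave 159 (94 and 65), and adding 0.1 gave 578, with 314 lower. A mean log2 value of at least 3 gave 229 (123 and 106). Ordinary per-gene variance gave 249 and quantile normalization 343 (192 and 151). For T/S/Z against T/5z the minimum of 2, no minimum, 5 added and the level filter gave 399, 4214, 611 and 658. The interaction gave 227, 2721, 396 and 426. T/S/Z/N against DMSO gave 596, 4837, 861 and 915, and T/5z/N against DMSO 573, 4259, 809 and 844. Without 1 replicate these ranged over 983 to 1104, 579 to 724, 1397 to 1572 and 1254 to 1405. The cause of these shifts was not tested beyond the settings themselves. Of 90 named called genes 0 reversed. Genes that were not called changed sign when 1 replicate was left out: Ccl3 ranged from -0.290 to 0.0388, Ccl4 from -0.224 to 0.0641, Egr2 from -0.0159 to 0.519, Tmem119 from -0.0894 to 0.0950 and Ikzf1 from -0.116 to 0.010. With 5 added before the log 22 of the 90 lost their call (Inhba, Dusp6, Spred2, Dusp16, Fosl2, Myc, Fos, Ifi205, Csf1, Il1a, Cxcl1, Hk2, Vegfa, Ccr1, Ptger2, Ptger4, Bbc3, Mki67, Ptgs2, Id2, Gpr34 and Il6), with ordinary per-gene variance 20 (among them Plaur, Jun, Atf3, Cxcl1, Il1a, Inhba, Ch25h, Ccr1, Ptgs2, Dusp6, Spred2, Vegfa, Gadd45a and Bhlhe40), and in at least 1 fit without a replicate 8 (Bbc3, Fos, Gpr34, Hmox1, Id2, Ifi205, Il6 and Myc).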
